A study of Homo sapiens with 6 samples.

Results

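A set of 10 markers of kidney tubular injury and repair were followed in Cisplatin-treated HK-2 cells with or without silencing of NAT10. They were HAVCR1, LCN2, CLU, SPP1, SOX9, VIM, PROM1, VCAM1, CD24 and CD44, chosen by name, and made up 10 of the 62754 genes in the deposited count table. HK-2 is an established line of human proximal tubule epithelial cells, so all values come from a single line in culture. Both groups received Cisplatin, a platinum drug that damages tubular cells. One group was transfected with negative control siRNA (CP+siNC) and the other with siRNA against NAT10 (CP+siNAT10), an RNA and protein acetyltransferase, with 3 mRNA libraries sequenced in each. Dose and time are not in the labels, and the methods chose 20 μM for 24 h in these cells. No library without Cisplatin was analysed here, so no level before injury is given. The labels do not say that the libraries of a group came from separate cultures, and p-values measure only the spread between these samples.

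A healthy proximal tubule cell expresses transporters and few of these markers. After damage it can lose differentiated features, switch on secreted and surface injury proteins and pass through a state with SOX9 and VIM from which it divides and repairs the epithelium. Cells that do not complete repair can retain VCAM1 and secrete inflammatory factors, while CD24 and PROM1 mark scattered tubular cells with progenitor features.

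The libraries of CP+siNC held 19321665, 21602988 and 19464027 counts and those of CP+siNAT10 held 20793709, 21531774 and 25192736. NAT10 (ENSG00000135372, chromosome 11 from 34105617 to 34147670, GRCh38) was measured at 75.8, 71.4 and 73.2 CPM (counts scaled to the library size after TMM) in CP+siNC and at 41.3, 40.5 and 42.4 CPM in CP+siNAT10. Every CP+siNAT10 library lay below every CP+siNC library, at 56.5% of the control level in the fit (log2 fold change -0.82, SE 0.0426, n = 3 per group).

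Of the 10 markers, 9 passed the filter on low counts and were tested, and PROM1 was low. At an adjusted p under 0.05 in edgeR's quasi-likelihood test, 5 of the 9 were higher in CP+siNAT10 (LCN2, SOX9, HAVCR1, CD24 and CD44), 3 were lower (SPP1, CLU and VIM) and VCAM1 was not called. Among all 19874 tested genes 44.1% were called, 21.8% higher and 22.3% lower. Well-counted genes were called more often: among the 10076 genes whose mean reached 10 CPM 61.7% were called, and all 8 of the markers at that level were. LCN2 was the only marker both called and past 2-fold, which held for 2.33% of all tested genes. The groups did not overlap for any of the 9 tested markers, which held for 51.4% of all tested genes. The markers therefore moved in both directions, and their median log2 fold change was 0.11 beside 0.01 for all tested genes. When tested against a fold change of 1.2 (glmTreat), 3 markers were called higher (LCN2, HAVCR1 and CD24) and 1 lower (SPP1), while among all tested genes 14.6% were called, 6.64% higher and 8.01% lower. In these bulk libraries fewer cells of a type and less RNA per cell cannot be told apart.

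**Figure D1:**
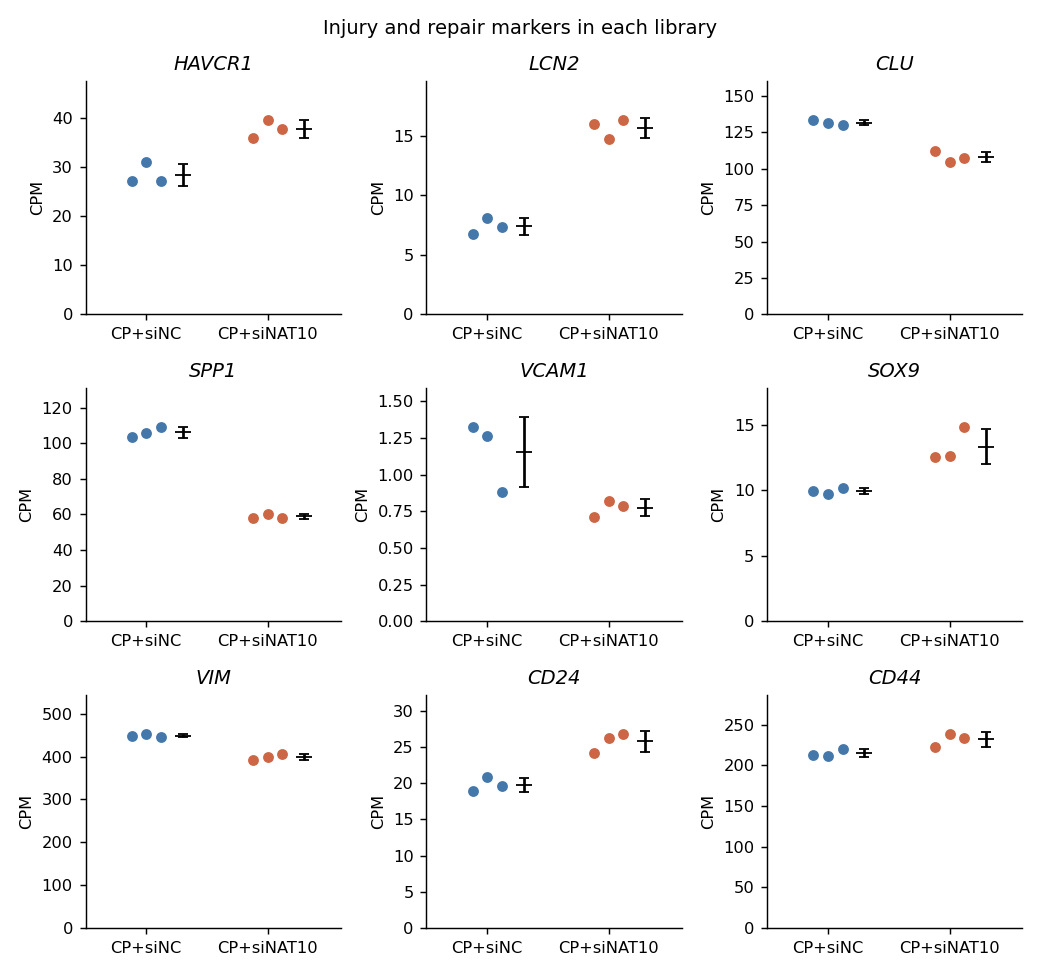
Level of the 9 tested markers in each library, in CPM on an axis from 0. Each point is a library, and the bar beside each group is its mean with the SD (n = 3). LCN2 lay between 6.74 and 8.13 CPM in CP+siNC and between 14.7 and 16.3 CPM in CP+siNAT10.

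Among the secreted markers, LCN2 changed most. LCN2 (ENSG00000148346, chromosome 9 from 128149071 to 128153453) encodes neutrophil gelatinase-associated lipocalin, which binds iron-carrying siderophores and is measured in urine as a sign of acute kidney injury. It was counted 127, 174 and 141 times in CP+siNC and 336, 321 and 414 times in CP+siNAT10. These counts correspond to 6.74, 8.13 and 7.32 CPM against 16.0, 14.7 and 16.3 CPM. The lowest CP+siNAT10 library stood well above the highest CP+siNC library, and the libraries within each group lay close together. The mean rose from 7.40 ± 0.695 to 15.7 ± 0.863 CPM (SD, n = 3), a 2.11-fold difference (log2 fold change 1.08, SE 0.0853, 95% confidence interval 0.90 to 1.25, Benjamini-Hochberg adjusted p = 2.39e-11, edgeR quasi-likelihood fit). Of all tested genes 140 had a higher log2 fold change, which is 0.704%.

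The promoter of LCN2 is shown because the gene had the largest rise of the 10. RefSeq promoters (GRCh38.p14, 250 bases before to 50 after each start) were found for 8 of the 10 markers, not for SOX9 and CLU. They were searched on both strands for the NF-kappaB consensus, for TGANTCA (the AP-1 consensus) and for TATAAA. Of 35116 RefSeq promoters 5.91% hold the first, 7.71% the second and 11.5% the last of these. The LCN2 promoter held 1 match to the NF-kappaB consensus, which begins 175 bases before the start, and 1 to TGANTCA, which begins 52 bases before it. The stretch at chr9:128149265-128149440 (plus strand) lies in no exon of GENCODE 29, and capitals mark the NF-kappaB match.
LCN2: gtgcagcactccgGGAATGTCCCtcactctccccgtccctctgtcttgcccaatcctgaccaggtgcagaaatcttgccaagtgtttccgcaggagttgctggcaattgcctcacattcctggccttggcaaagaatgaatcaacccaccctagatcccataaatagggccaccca

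SPP1 (ENSG00000118785, chromosome 4 from 87975667 to 87983529) encodes osteopontin, a secreted phosphoprotein that binds integrins and CD44 and attracts macrophages. It was measured at 103, 106 and 109 CPM in CP+siNC and at 58.2, 60.4 and 58.3 CPM in CP+siNAT10. All 3 CP+siNAT10 libraries were far below the CP+siNC libraries and almost equal to each other. SPP1 fell from 106 ± 3.01 to 59.0 ± 1.24 CPM (SD, n = 3), which is 55.5% of the control level (log2 fold change -0.85, SE 0.0386, 95% confidence interval -0.93 to -0.77, adjusted p = 2.05e-16, edgeR quasi-likelihood fit). It was the largest fall among the 10 markers and close in size to that of NAT10 itself.

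The SPP1 promoter held no match to these 3 motifs. Its stretch outside GENCODE 29 exons is at chr4:87975464-87975649 (plus strand) and is shown beside that of LCN2, the marker that moved most the other way.
SPP1: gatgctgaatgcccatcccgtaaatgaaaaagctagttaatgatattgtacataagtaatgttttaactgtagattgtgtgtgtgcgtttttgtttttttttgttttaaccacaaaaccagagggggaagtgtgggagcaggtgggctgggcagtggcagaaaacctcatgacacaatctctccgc

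The longest annotated 3′ UTR of each marker was also searched for the heptamer GACTATC, the overlapping ACTATCA and the unrelated CATATTC, which were taken up because earlier results of these data had linked them to lower genes. The 3′ UTR of SPP1, with 533 bases, held 1 copy of ACTATCA. None of the other 9 markers held any of the 3 heptamers. Among 13375 tested protein-coding genes 2489 (18.6%) held at least 1, with a median log2 fold change of -0.07 beside 0.03 for the rest, without correction for 3′ UTR length. This difference was computed on the libraries that had led to the heptamers, so it is no independent evidence of such a link. The part of the ACTATCA match in the fall of SPP1 was not tested.

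CLU (ENSG00000120885, chromosome 8 from 27596917 to 27614700) encodes clusterin, a secreted chaperone that rises in damaged tubules. Its level was 134, 131 and 129.9 CPM in CP+siNC and 112, 105 and 108 CPM in CP+siNAT10. The groups were apart, with a gap that was small beside the level. CLU fell to 82.1% of the control level (log2 fold change -0.28, SE 0.0358, adjusted p = 1.65e-07, edgeR quasi-likelihood fit, n = 3 per group).

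Of the surface markers, HAVCR1, CD24 and CD44 were called higher, and none was called lower. HAVCR1 (ENSG00000113249, chromosome 5 from 157026742 to 157069396) encodes kidney injury molecule 1, a phosphatidylserine receptor with which injured proximal tubule cells take up dying neighbours. It was measured at 27.1, 31.0 and 27.2 CPM in CP+siNC and at 35.9, 39.6 and 37.8 CPM in CP+siNAT10. All CP+siNAT10 libraries were above the CP+siNC libraries, the highest of which was replicate 2. HAVCR1 rose from 28.4 ± 2.23 to 37.7 ± 1.86 CPM (SD, n = 3), a 1.32-fold difference (log2 fold change 0.41, SE 0.0558, 95% confidence interval 0.29 to 0.52, adjusted p = 7.04e-07, edgeR quasi-likelihood fit). Its RefSeq promoter, at chr5:157059067-157059366 (minus strand), held none of the 3 motifs. That window lies inside the deposited gene, and the deposited start at 157069396 was not searched.

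VCAM1 (ENSG00000162692, chromosome 1 from 100719742 to 100739029) encodes an adhesion protein that binds leukocyte integrins and marks tubule cells after failed repair. It was barely expressed, with 25, 27 and 17 counts in CP+siNC and 15, 18 and 20 in CP+siNAT10. In CPM these were 1.33, 1.26 and 0.883 against 0.712, 0.824 and 0.789. Replicate 3 of CP+siNC lay much nearer to the CP+siNAT10 libraries than to the rest of its own group. The log2 fold change of -0.58 had an SE of 0.264 and a 95% confidence interval from -1.12 to -0.03, and the adjusted p of 0.0789 in the edgeR fit missed the limit. Without CP+siNC replicate 3 VCAM1 was called lower (log2 fold change -0.73, adjusted p = 0.0395 from the same edgeR test, and between 0.0395 and 0.247 over the 14 alternatives tested against no change). A change of VCAM1 was therefore not established in these libraries.

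The VCAM1 promoter is shown because it held 1 place that matches the NF-kappaB consensus on both strands, from 62 bases before the start, and 3 matches to TATAAA. The 250 bases before the start are at chr1:100719492-100719741 (plus strand), with the NF-kappaB match in capitals.
VCAM1: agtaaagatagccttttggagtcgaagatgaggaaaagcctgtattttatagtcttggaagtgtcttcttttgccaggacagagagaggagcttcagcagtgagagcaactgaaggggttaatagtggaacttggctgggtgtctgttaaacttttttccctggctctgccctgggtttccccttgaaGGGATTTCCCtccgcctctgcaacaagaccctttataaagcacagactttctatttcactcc

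Of the markers of dedifferentiation and repair, SOX9 rose and VIM fell. SOX9 (ENSG00000125398, chromosome 17 from 72121020 to 72126416) encodes a transcription factor that is active in the developing nephron and again in regenerating tubules. It was measured at 9.93, 9.72 and 10.2 CPM in CP+siNC and at 12.5, 12.6 and 14.8 CPM in CP+siNAT10. The CP+siNC libraries were tightly grouped and all below the CP+siNAT10 libraries, among which replicate 3 stood highest. SOX9 rose 1.35-fold (log2 fold change 0.43, SE 0.0839, 95% confidence interval 0.26 to 0.60, adjusted p = 1.10e-04, edgeR quasi-likelihood fit, n = 3 per group). The antisense gene SOX9-AS1 spans SOX9 and had at most 2 counts in any library.

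VIM (ENSG00000026025, chromosome 10 from 17228241 to 17237593) encodes vimentin, an intermediate filament of mesenchymal and dedifferentiated epithelial cells. Its libraries stood at 447, 454 and 446 CPM in CP+siNC and at 391, 399 and 406 CPM in CP+siNAT10. The libraries of each group were nearly equal, so that a small difference separated them fully. VIM fell to 88.8% of the control level (log2 fold change -0.17, SE 0.0319, adjusted p = 5.80e-05, edgeR quasi-likelihood fit, n = 3 per group). The antisense gene VIM-AS1 overlaps it over 1180 bases, had between 24.7% and 26.0% of its counts and was lower as well, at 114 ± 3.43 and 103 ± 2.18 CPM (SD, n = 3, log2 fold change -0.15). The libraries were stranded, but whether counting used the strand is not stated, and without it reads of VIM and VIM-AS1 cannot be told apart where they overlap.

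**Figure D2:**
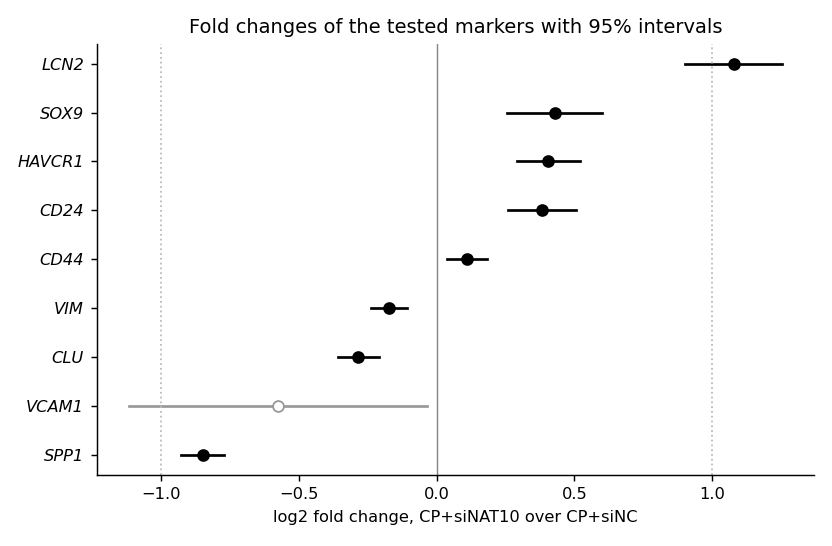
Fold change of the 9 tested markers between CP+siNAT10 and CP+siNC on a log2 axis, with 95% confidence intervals. Filled points passed an adjusted p of 0.05, the open point (VCAM1) did not, and dotted lines mark 2-fold. LCN2 lies at 1.08 and SPP1 at -0.85.

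CD24 (ENSG00000272398, chromosome 6 from 106969831 to 106975459) encodes a small glycosylated surface protein of epithelial and progenitor cells. It was measured at 18.9, 20.8 and 19.6 CPM in CP+siNC and at 24.2, 26.3 and 26.9 CPM in CP+siNAT10. The groups did not overlap, and the gap between them was wider than the range within either. CD24 rose from 19.8 ± 1.00 to 25.8 ± 1.41 CPM (SD, n = 3, log2 fold change 0.38, SE 0.0604, 95% confidence interval 0.26 to 0.51, adjusted p = 5.84e-06, edgeR quasi-likelihood fit). The near-identical copies CD24P2 and CD24P4 had at most 6 counts in any library, although shared reads could still have been assigned to either.

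Of the 3 RefSeq starts of CD24, the windows of 2 hold the same NF-kappaB match, 72 bases before the outermost start and 234 before the next. The stretch before the outermost start, at chr6:106975628-106975877 (minus strand), is shown with this match in capitals, since CD24 and LCN2 were the markers with a RefSeq promoter that rose and held one.
CD24: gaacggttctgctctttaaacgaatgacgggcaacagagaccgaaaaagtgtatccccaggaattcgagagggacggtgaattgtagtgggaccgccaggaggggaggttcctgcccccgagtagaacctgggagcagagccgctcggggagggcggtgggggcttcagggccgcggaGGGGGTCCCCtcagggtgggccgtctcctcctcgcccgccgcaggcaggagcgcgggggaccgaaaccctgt

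CD44 (ENSG00000026508, chromosome 11 from 35138882 to 35229333) encodes the main receptor for hyaluronan and also binds osteopontin. Its level was 212, 211 and 221 CPM in CP+siNC and 222, 239 and 234 CPM in CP+siNAT10. The groups only just missed each other, with CP+siNC replicate 3 and CP+siNAT10 replicate 1 side by side. The log2 fold change was 0.11 (SE 0.0347, 95% confidence interval 0.04 to 0.18, adjusted p = 0.0105, edgeR quasi-likelihood fit, n = 3 per group). This call was lost without CP+siNC replicate 2 (log2 fold change 0.09, adjusted p = 0.0618 from the same edgeR test) and without CP+siNAT10 replicate 2 (log2 fold change 0.09, adjusted p = 0.0772 from the same edgeR test), with an adjusted p between 8.47e-04 and 0.0772 over the 14 alternatives tested against no change. The antisense CD44-AS1 lies within CD44 and was not called, at 11.3 ± 0.534 CPM in CP+siNC and 11.1 ± 0.462 CPM in CP+siNAT10 (SD, n = 3). Upstream of CD44, CD44-DT was not called either, at 3.15 ± 0.193 and 3.22 ± 0.0593 CPM (SD, n = 3).

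PROM1 (ENSG00000007062, chromosome 4 from 15963076 to 16084378) encodes prominin 1, also called CD133, a protein of membrane protrusions. It had 1 count in CP+siNC replicate 3 and none in the other 5 libraries. A total of 3 counts over a whole group would be 0.0504 CPM in CP+siNC and 0.0439 CPM in CP+siNAT10, so PROM1 was at or under what this depth can show and no fold change is given. Such floors cover counting error only.

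Levels of different markers were compared per kilobase of gene length (RPKM). In CP+siNC, VIM stood highest at 86.7 ± 0.833 RPKM (SD, n = 3), followed by CD44 at 21.5, CLU at 20.9, SPP1 at 14.7, CD24 at 6.38, HAVCR1 at 5.86, LCN2 at 4.64, SOX9 at 2.53 and VCAM1 at 0.191 RPKM. The libraries of CD44 and CLU overlapped in this order, and so did those of CD24 and HAVCR1, while the other neighbours were apart. In CP+siNAT10 LCN2 moved up from place 7 to place 4 with 9.81 ± 0.541 RPKM, and SPP1 went down from place 4 to place 6 with 8.13 ± 0.171 RPKM (SD, n = 3). Below LCN2, the libraries of CD24 (8.32 RPKM), SPP1 and HAVCR1 (7.77 RPKM) overlapped, so their order was not resolved. Per length, LCN2 stood below SPP1 in every CP+siNC library and above it in every CP+siNAT10 library. This crossing depends on the deposited lengths, 1596 bases for LCN2 and 7250 for SPP1, which is nearly the whole span of that gene. In CPM, SPP1 stayed above LCN2 in every library.

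**Figure D3:**
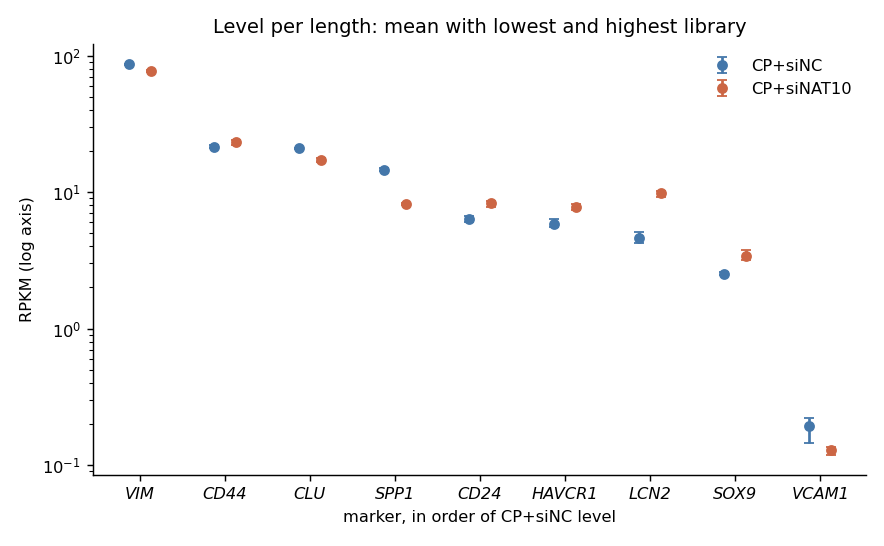
Level of 9 markers per length, in RPKM on a log axis, in order of their CP+siNC level. Points are group means, and bars reach from the lowest to the highest of 3 libraries. Per deposited length, LCN2 and SPP1 exchange order between the groups, at 4.64 and 14.7 RPKM in CP+siNC and at 9.81 and 8.13 RPKM in CP+siNAT10, while in CPM SPP1 stays above LCN2. PROM1, with 1 count in all, is not drawn.

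Receptors, ligands and binding partners of the markers changed in both directions. Of 27 such genes 19 were tested, of which 7 were higher, 6 lower and 6 not called, with a median log2 fold change of 0.04. Of those tested 68.4% were thus called, beside 44.1% of all tested genes (21.8% higher and 22.3% lower). The share was 61.7% among all tested genes whose mean reached 10 CPM. The largest change was in MMP9, a matrix protease that LCN2 binds and protects, which fell from 2.00 ± 0.156 to 0.621 ± 0.149 CPM (SD, n = 3, log2 fold change -1.66). SIGLEC10, a receptor for CD24, rose from 0.366 ± 0.104 to 0.897 ± 0.182 CPM (SD, n = 3, log2 fold change 1.26). These were low levels. The integrin chain ITGB7, part of a receptor for VCAM1, fell from 0.742 ± 0.123 to 0.319 ± 0.115 CPM (SD, n = 3, log2 fold change -1.18). Better counted were RDX (radixin), which ties CD44 to actin and fell from 166 ± 4.42 to 100.3 ± 2.38 CPM, and VCAN (versican), which binds hyaluronan and rose from 167 ± 3.13 to 242 ± 9.95 CPM (SD, n = 3 each). ITGB3, a chain of an osteopontin receptor, rose 0.36 on the log2 scale while SPP1 fell.

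Of 39 relatives of the markers 21 were tested, with 7 higher, 5 lower and 9 not called and a median log2 fold change of 0.10. Of those tested 57.1% were thus called, beside 44.1% of all tested genes (21.8% higher and 22.3% lower). The share was 61.7% among all tested genes whose mean reached 10 CPM. The lipocalin LCN10 went the other way from LCN2, from 2.19 ± 0.165 to 0.941 ± 0.186 CPM (SD, n = 3, log2 fold change -1.20). ICAM1, an adhesion protein related to VCAM1 and expressed far more, fell from 91.9 ± 4.75 to 58.1 ± 1.75 CPM (SD, n = 3, log2 fold change -0.66). All 3 CP+siNAT10 libraries lay below CP+siNC for both genes. The 7 higher relatives were SOX13 (0.36), ALCAM (0.30), SOX4 (0.27), LMNA (0.19), NES (0.18), LMNB1 (0.17) and SYNM (0.10 on the log2 scale). Besides LCN10 and ICAM1, the lower ones were ICAM5 (-0.35), MCAM (-0.29) and SOX12 (-0.19 on the log2 scale).

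Other genes of tubular injury also changed in both directions. Of 42 genes 33 were tested, of which 14 were lower, 7 higher and 12 not called, beside 22.3% lower and 21.8% higher among all tested genes, and the median log2 fold change was -0.17. IGFBP7, a secreted factor that is measured in urine as a marker of tubular stress, fell from 43.9 ± 1.62 to 18.1 ± 0.936 CPM (SD, n = 3, log2 fold change -1.28). PLAU, the urokinase protease, fell from 84.9 ± 0.893 to 48.8 ± 2.80 CPM (SD, n = 3, log2 fold change -0.80), and the chemokine CXCL8 from 66.4 ± 1.01 to 38.7 ± 3.23 CPM (SD, n = 3, log2 fold change -0.77). DCDC2, a microtubule-binding protein, rose from 8.63 ± 0.703 to 17.9 ± 1.22 CPM (SD, n = 3, log2 fold change 1.06). The integrin chains ITGB6 and ITGB8, whose integrins activate TGF-beta, rose from 0.444 ± 0.180 to 1.19 ± 0.186 CPM and from 0.797 ± 0.307 to 1.64 ± 0.348 CPM (SD, n = 3 each). The other higher genes were S100A6 (0.39), TIMP2 (0.31), which is measured in urine together with IGFBP7, TGFB2 (0.19) and S100A11 (0.09 on the log2 scale).

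Genes of repair and progenitor cells were split evenly, and all tested genes nearly so (21.8% higher and 22.3% lower). Of 41 genes 37 were tested, with 13 higher, 13 lower and 11 not called and a median log2 fold change of -0.0038. Of those tested 70.3% were thus called, beside 44.1% of all tested genes and 61.7% of those whose mean reached 10 CPM. CCND1, the cyclin that carries cells through the G1 phase, fell from 279.9 ± 6.16 to 105 ± 2.51 CPM (SD, n = 3, log2 fold change -1.41). WNT7B, a Wnt ligand, rose from 1.39 ± 0.147 to 3.36 ± 0.401 CPM (SD, n = 3, log2 fold change 1.27). AREG, a ligand of the EGF receptor, rose from 28.7 ± 0.549 to 46.7 ± 3.78 CPM (SD, n = 3, log2 fold change 0.71).

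**Figure D4:**
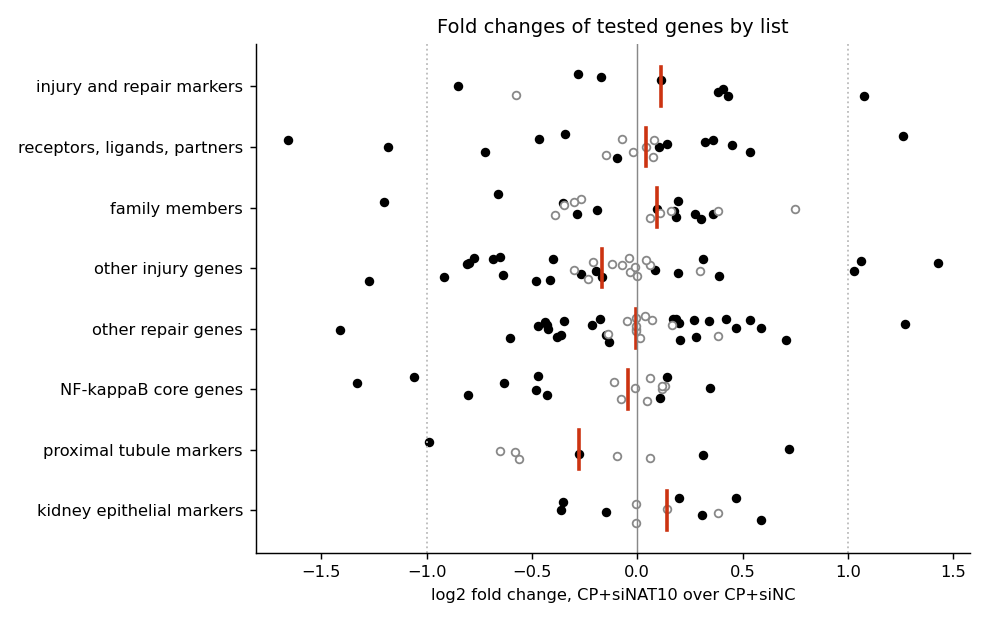
Log2 fold change between CP+siNAT10 and CP+siNC for each tested gene of 8 lists. Filled points passed an adjusted p of 0.05, open points did not, red bars are medians, dotted lines mark 2-fold and the vertical spread of points within a list has no meaning. The medians are 0.11 for the injury and repair markers and -0.17 for other injury genes.

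NF-kappaB is a transcription factor of inflammation that can drive LCN2, VCAM1 and ICAM1, and its own inhibitors are among its targets. All 18 core genes of the pathway were tested, of which 7 were lower, 3 higher and 8 not called, with a median log2 fold change of -0.04. The share called was 55.6%, beside 44.1% of all tested genes (22.3% lower and 21.8% higher). Among all tested genes whose mean reached 10 CPM, not only core genes, the share called was 61.7%. BIRC3, an inhibitor of cell death, fell from 33.4 ± 0.963 to 13.2 ± 1.07 CPM (SD, n = 3, log2 fold change -1.33), and the subunit RELB from 12.9 ± 1.40 to 6.15 ± 0.682 CPM (SD, n = 3, log2 fold change -1.06). The feedback inhibitors TNFAIP3 and NFKBIA fell by 0.80 and 0.47 on the log2 scale. The 3 higher genes were IKBKB (0.34), IKBKG (0.14) and NFKBIZ (0.11 on the log2 scale). The number of higher genes was not stable: it was 6 with library sizes left unscaled, and 2, 1 and 5 when replicate 1 of CP+siNC, replicate 2 of CP+siNC or replicate 3 of CP+siNAT10 was left out. Of the 15 core genes whose RefSeq promoter was searched, 10 held a match to the NF-kappaB consensus, among them BIRC3 and TNFAIP3. So did 3 of the 8 markers with a RefSeq promoter (LCN2, CD24 and VCAM1). Promoters on chromosome 8 were left out for the core genes but not for the share of all RefSeq promoters. IKBKB was not among the 15. Counted by promoter, these were 12 of 30 for the core genes and 4 of 13 for the markers, beside the 5.91% of all RefSeq promoters. Genes with such a match thus included both higher and lower ones, and a match is a description of letters and not of binding.

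The labelled cell type was checked against its markers. Of 21 proximal tubule markers 9 passed the filter, with 2 higher, 2 lower and 5 not called and a median log2 fold change of -0.28. The share called, 44.4%, was close to the 44.1% of all tested genes. The list summed to 57.3, 57.2 and 54.7 CPM in CP+siNC and to 54.7, 50.4 and 52.9 CPM in CP+siNAT10. Their most abundant gene was GGT1, at 33.2 ± 0.177 CPM in CP+siNC and 27.4 ± 1.92 CPM in CP+siNAT10 (SD, n = 3). Several genes that define the segment were nearly absent: SLC22A6 had no count in any library, and LRP2, CUBN and SLC34A1 each stayed under 1 CPM. DPP4 rose from 2.71 to 4.45 CPM and SLC5A2 from 9.30 to 11.5 CPM, while SLC3A1 fell from 2.65 to 1.35 CPM. Markers of kidney epithelium were plentiful, with a sum of 2257, 2289 and 2227 CPM in CP+siNC and of 2204, 2206 and 2225 CPM in CP+siNAT10. KRT8, the most abundant, did not pass the test, at 1455 ± 21.1 and 1450.0 ± 18.7 CPM (SD, n = 3), while CDH1 was near 0. Of the 11 epithelial markers tested 4 were higher, 3 lower and 4 not called. The share called was 63.6%, beside 44.1% of all tested genes and 61.7% of those whose mean reached 10 CPM. The median log2 fold change was 0.14, with PAX8 0.59 and CDH6 0.47 higher and KRT18 fallen by 0.36 on the log2 scale.

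Markers of other cells were mostly at or near 0. The 10 leukocyte markers summed to 210.8, 200.2 and 218 CPM in CP+siNC and to 289.7, 267 and 270.1 CPM in CP+siNAT10, nearly all of it CD68, a lysosomal protein that other cells also express, at 207 and 272 CPM. Of the 3 tested, CD68 and PTPRC were called higher and CD14 was not called. PTPRC, found on all leukocytes, was measured at 0.425, 0.467 and 0.363 CPM in CP+siNC and at 0.475, 1.33 and 0.671 CPM in CP+siNAT10 (log2 fold change 0.96, adjusted p = 0.0411, edgeR quasi-likelihood fit). The number of higher leukocyte markers was 1 when any CP+siNC library or CP+siNAT10 replicate 2 was left out. The markers CD3E, LYZ and ITGAM averaged under 1 CPM in both groups. The 6 podocyte markers summed to 74.3, 77.1 and 72 CPM against 52.5, 55.5 and 55.3 CPM, most of it SYNPO, at 63.4 and 41.4 CPM, and of the 3 tested 1 was higher, 1 lower and 1 not called. The 6 endothelial markers summed to at most 0.561 CPM in any library and none was tested, and their most abundant gene was PECAM1. The 14 markers of distal tubule and collecting duct summed to between 6.79 and 8.14 CPM, led by SCNN1A, with SLC12A3 at 0. Of the 4 tested, SCNN1A was called higher (log2 fold change 0.45), AQP3 (-0.98) and GATA3 (-0.82) lower, and CALB1 was not called. The number of these calls changed when some single libraries were left out. The 11 fibroblast and smooth muscle markers summed to between 36.8 and 46.8 CPM, with COL1A1 rising from 10.5 to 13.6 CPM, and the other 6 tested were not called. The leukocyte sum, set by CD68, was thus higher in CP+siNAT10, and the podocyte sum, set by SYNPO, was lower. Since each was set by a single gene in a single cultured line, these sums do not show leukocytes or podocytes. The part of the sums in the marker results was not tested.

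**Figure D5:**
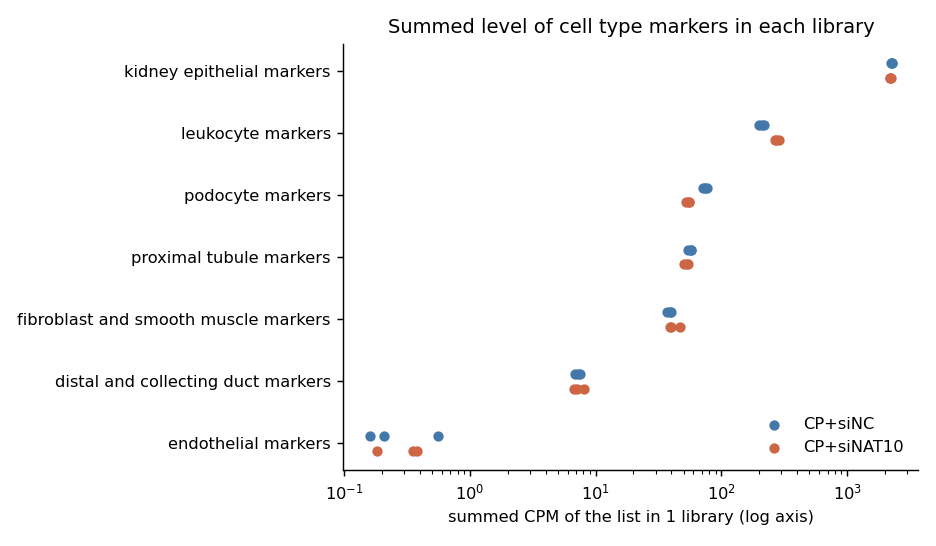
Summed level of 7 lists of cell type markers in each library, in CPM on a log axis. Each point is a library. Kidney epithelial markers lie between 2204 and 2289 CPM in the 6 libraries and endothelial markers below 1 CPM.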

How the data were processed

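Raw counts per gene were deposited by the authors for 6 libraries, and group and replicate number were taken from the labels. The submitters' processing notes name Trimmomatic 0.36, STAR 2.5.3a, featureCounts, Subread 1.5.1, edgeR 3.12.1 and GRCh38. The libraries were stranded and carried random molecular identifiers, meant to correct for duplicate reads. The annotation, the strand setting of the counting and whether the counted reads had been merged by identifier are not given in the sources used here. Unmerged copies would be counted as separate reads. GENCODE 29 holds the identifiers of 95.3% of the tested genes, and 99.9% of the genes found there lie at the position in the table.

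The analysis used edgeR 4.0.16 and limma 3.58.1 in R 4.3.3. From each library 99.8% of the counts, on 19874 genes, were kept by filterByExpr with a minimum count of 10 and a minimum total of 15. Library sizes were scaled by TMM, and groups were compared with glmQLFit and glmQLFTest, with Benjamini-Hochberg adjustment over all tested genes. The replicate number was no term of the model. A gene was called at an adjusted p under 0.05. The SE is the size of the log2 fold change over the square root of F, and 95% intervals from the t distribution with the fitted degrees of freedom. A marker without 10 counts in 3 libraries was low. RPKM used the deposited gene length. Libraries of a group differed by a chi-square per gene between 1.73 and 2.55, where counting alone gives about 1, so no library was a copy, and libraries of different groups by between 18.4 and 22.8. For a single gene, 0.10 is the smallest two-sided p that an exact permutation of 3 against 3 libraries can reach.

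Markers and lists were chosen with earlier results of these data known, and lists were written from general knowledge. Genes named from a list were those past both an adjusted p of 0.05 and 2-fold, otherwise up to 4 with the smallest p. For lists of cell type markers, the most abundant gene and some markers with low or no counts were also named. Outside these rules, TNFAIP3, NFKBIA, ICAM1, PLAU, CXCL8, RDX, VCAN, ITGB3 and AREG were chosen after their values were seen. So were the remaining higher genes of the injury, relatives and NF-kappaB lists and the remaining lower relatives. The same holds for the level of 10 CPM for the share of called genes. The motif and heptamer searches were added after the counts had been analysed.

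Alternatives were RLE, upper quartile and no scaling, a looser and a stricter filter, DESeq2 1.42.0, edgeR's exact test, leaving out each library, a block for the replicate number and glmTreat against 1.2-fold. Programs were tested on simulated data. Sequences are RefSeq GRCh38.p14, and Python 3.11.15 with pandas 2.3.3 and matplotlib 3.10.9 was used for sequences and figures.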

Additional observations from a re-analysis of the deposited data

How the results depend on the processing

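NAT10 and every tested marker other than CD44 and VCAM1 kept direction and call under the 14 alternatives tested against no change, LCN2 between 1.02 and 1.15 and SPP1 between -0.87 and -0.81. When single libraries were left out, CD44 lay between 0.089 and 0.14 and VCAM1 between -0.73 and -0.48. Against 1.2-fold, 3 markers were higher and 1 lower instead of 5 and 3, and 2910 genes were called in all instead of 8771. Without scaling, 6 NF-kappaB core genes were higher instead of 3, and the CP+siNC levels of CLU and VIM were 20.6 and 85.4 RPKM instead of 20.9 and 86.7. Leukocyte markers had 2 higher and 0 lower genes, but 1 lower with the looser filter, and 1 higher with the stricter filter and with DESeq2. Distal markers had 1 higher and 2 lower, but 1 lower with the stricter filter and with DESeq2, which gave 0 higher. With single libraries left out, higher NF-kappaB core genes numbered 1 to 5, higher leukocyte markers 1 to 2 and lower ones 0 to 1, higher distal markers 0 to 1 and lower ones 1 to 2. The causes were not tested.

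The replicate numbers did not pair the samples, with correlations of -0.0423, 0.0106 and -0.143 between the deviations of same-numbered libraries. With the replicate number as a block 8526 genes were called instead of 8771, and 5 markers were higher and 3 lower as without it.

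VCAM1 had at most 27 counts per library, and PROM1 passed only the looser filter. The part of depth in the missing call of VCAM1 was not tested.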
